A study of Arabidopsis thaliana with 6 samples.

Results

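BCAT4 (AT3G19710) and AOP3 (AT4G03050) encode enzymes that act near the start and near the end of the methionine-derived glucosinolate pathway. They are 2 of 13286 genes that a probe set of the array named singly, and each was read by 1 probe set. Both were chosen from these data, from their differences between the genotypes and from their low values in esd7-1 replicate 3 and in Ler replicate 2. Their values in those contrasts are therefore given as a description, without a test. RNA came from 14-day-old whole Arabidopsis thaliana seedlings raised under short photoperiods and harvested 8 h after dawn. One group was the wild-type accession Ler (Landsberg erecta), and the other was the mutant esd7-1, named for a single mutant allele of ESD7, the gene of the catalytic subunit of DNA polymerase epsilon. Each group had 3 Affymetrix arrays, each from RNA of its own pool of plants. No probe set named ESD7 alone, so the mutant labels were not checked against it. The design addresses the effect of the mutation on transcript levels in short days.

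Glucosinolates are sulfur-rich defence compounds of the cabbage order, stored in the plant and cut by myrosinases when tissue is damaged. Those made from methionine begin with side-chain elongation, in which BCAT4 removes the amino group of methionine to give the oxo acid that enters the elongation cycle. The elongated amino acid is then turned into the glucosinolate core by cytochromes P450, glutathione transferases, glucosyltransferases and sulfotransferases. Side-chain enzymes finish the product, and AOP3, a dioxygenase dependent on 2-oxoglutarate, forms hydroxyalkyl glucosinolates. Natural accessions differ in which AOP enzymes they express, and Ler is known as an accession that expresses AOP3. In the gene order of the reference table, AOP3 lies close to AOP2, listed there as a transcribed pseudogene, and to AOP1.

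All values below are on the log2 scale of the deposited table, so a difference of 1 is a doubling. BCAT4, the aminotransferase of the first elongation step, read 10.97, 11.20 and 8.68 in esd7-1 replicates 1, 2 and 3 and 10.34, 7.33 and 10.52 in Ler replicates 1, 2 and 3. Ler replicate 2 and esd7-1 replicate 3 were the lowest and next lowest arrays, and the genotypes overlapped. AOP3 read 10.31, 10.69 and 8.40 in esd7-1 and 9.70, 7.34 and 10.02 in Ler, in the same replicate order. The same arrays were low, and the order of all 6 arrays, from esd7-1 replicate 2 at the top to Ler replicate 2 at the bottom, was identical for both genes. Part of this order was fixed by how the genes were chosen.

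**Figure D1:**
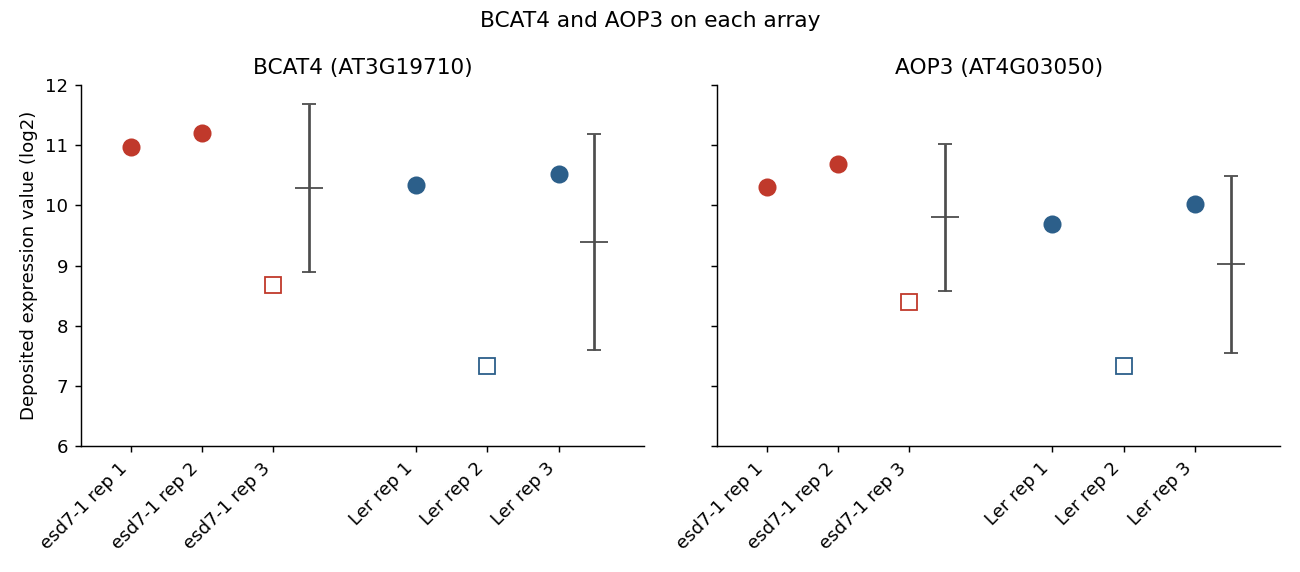
Log2 expression values (y axis) of BCAT4 and AOP3 on each of the 6 arrays (x axis), with esd7-1 in red and Ler in blue; open squares are esd7-1 replicate 3 and Ler replicate 2, and grey bars show the mean ± SD of the 3 arrays of a genotype. In both panels the open squares lie below all 4 filled points, at 8.68 and 7.33 for BCAT4 and at 8.40 and 7.34 for AOP3.

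Both transcripts were abundant. The mean level of BCAT4 stood at percentile 96.1 of all 22746 plant probe sets and that of AOP3 at percentile 94.8. On Ler replicate 2, the lowest array, they still stood at percentiles 80.6 and 80.8 of that array, so their low values there were far from the floor of the scale. Their spread over the 6 arrays, an SD of 1.52 for BCAT4 and 1.28 for AOP3, stood at percentiles 99.9 and 99.8 of all probe sets. This spread takes in the low arrays by which the genes were chosen. Over the other 4 arrays the SD was 0.40 for BCAT4 and 0.42 for AOP3.

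Control RNA that holds no plant transcript set the arrays with low BCAT4 and AOP3 apart. The mean of 24 bacterial poly-A control probe sets was 6.53 on esd7-1 replicate 3 and 7.29 on Ler replicate 2, against 5.74 to 5.89 on the other 4. No label gives this split, so it was not tested. Of the root markers, 4 of 7 were measured, and all 4 were higher on both arrays than on each of the others, as were 13.7% of all probe sets. Their log2 summed level was 12.1 and 11.8 there, against 10.5 to 10.8 on the others. The largest of these differences, 2.73, belonged to AT3G01190, and UGT72E2, a glucosyltransferase, was higher by 1.35. Of 5 shoot photosynthesis markers, RCA and PSAN were measured, with a log2 summed level of 14.4 on both arrays and 14.1 to 14.3 on the others. The trichome gene TRY was higher on the 2 arrays by 0.19 and the guard cell and myrosin cell factor FMA (FAMA) by 0.17, the 1 measured gene of each list, and no vascular marker was analysed here. Probe sets at the 3′ end of control transcripts exceeded those at the 5′ end, a measure of RNA integrity over 6 pairs, by 1.04 and 1.16 on the 2 arrays and by 1.40 to 1.90 on the other 4. The part of tissue make-up and RNA integrity in the levels of BCAT4 and AOP3 was not tested. In whole seedlings, fewer cells of a type and less RNA per cell cannot be told apart.

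BCAT4 averaged 8.01 on the 2 arrays and 10.76 ± 0.40 (SD, n = 4) on the others, a difference of -2.75, or 6.74-fold. AOP3 averaged 7.87 and 10.18 ± 0.42 (SD, n = 4), a difference of -2.31, or 4.96-fold. Among the 13286 genes these were the lowest difference and the next lowest, and no other gene was lower by 2 log2 units or more. Among all 22746 probe sets, including those without a single gene name, BCAT4 and AOP3 took places 2 and 5. A value lower on both arrays than on each of the other 4 was found for 14.3% of all probe sets and was part of how both genes were chosen. In the other direction, 39 genes were higher on the 2 arrays by 2 log2 units or more.

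The drop was seen inside each genotype. For BCAT4, esd7-1 replicate 3 differed from the mean of the other esd7-1 arrays by -2.41 (5.30-fold), and Ler replicate 2 from the mean of the other Ler arrays by -3.10 (8.57-fold). For AOP3 the values were -2.10 in esd7-1 (4.29-fold) and -2.52 in Ler (5.74-fold). BCAT4 moved further than AOP3 on both arrays. Measured from the mean of the other 4 arrays, the shift of BCAT4 minus that of AOP3 was -0.30 on esd7-1 replicate 3 and -0.59 on Ler replicate 2, and -0.08 to 0.08 on the remaining arrays. With 1 array of a genotype on the low side, the difference between the genotypes in this drop was not tested.

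Averaged over all arrays, BCAT4 reached 10.28 ± 1.39 (SD, n = 3) in the mutant and 9.40 ± 1.79 (SD, n = 3) in Ler. The difference of 0.89 had a standard error of 1.02 in limma. AOP3 reached 9.80 ± 1.23 (SD, n = 3) in the mutant and 9.02 ± 1.46 (SD, n = 3) in Ler, a difference of 0.78 ± 0.86 (SE). Each difference was smaller than the spread within either genotype. The 2 arrays are divided evenly between the genotypes, so a term for their split from the other arrays cannot change either difference. With that term the standard errors were 0.17 for BCAT4 and 0.16 for AOP3. Both genes were chosen from this split, so these smaller errors are a description and not a test. Without Ler replicate 2 the differences were -0.15 and -0.06, and without esd7-1 replicate 3 they were 1.69 and 1.48, so the values depend on both arrays. Inside the 4 other arrays both esd7-1 values exceeded both Ler values, by 0.66 on average for BCAT4 (1.57-fold) and 0.64 for AOP3 (1.56-fold). The same held for 16.9% of all probe sets. Between esd7-1 replicate 3 and Ler replicate 2 the mutant array was higher by 1.35 for BCAT4 (2.55-fold) and 1.06 for AOP3 (2.08-fold), a comparison of single arrays.

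Other genes were taken from 10 lists of 94 genes, BCAT4 and AOP3 included. The lists cover glucosinolate metabolism, sulfur and methionine supply, and other branched-chain aminotransferases. A probe set named 14 of the 92 others singly. In limma, fitted to all 22746 probe sets with Benjamini-Hochberg adjustment, 0 of the 14 differed between esd7-1 and Ler, and 0% of all probe sets did. The adjusted p of the 14 lay between 0.733 and 0.950. At an unadjusted p under 0.05 there were 2 of the 14, both lower in esd7-1, against 5.78% of all probe sets. The median difference of the 14 was 0.14, with 9 above 0, beside a median of 0.02 over all 13286 genes. Without Ler replicate 2 the median was -0.11, with 5 of the 14 above 0, and without esd7-1 replicate 3 it was 0.35. With a term for the 2 arrays, and with both left out, the count called among the 14 was again 0, while an unadjusted p under 0.05 was reached by 7 with the term (5 higher and 2 lower in esd7-1) and by 4 with both left out (3 higher and 1 lower). Over all probe sets the shares in those fits were 11.1% and 7.49%.

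On the split of the arrays, the 5 measured enzymes from the elongation, core and side-chain lists, which hold 30 genes besides BCAT4 and AOP3, all read lower on both arrays than on each of the others. For comparison, 14.3% of all probe sets did so. Their median difference was -1.17, beside 0.01 over all genes, and each of the 5 moved less than BCAT4 or AOP3. The union of these lists was formed after their values were seen. None of the other 9 elongation genes was analysed here, so BCAT4 alone stands for that stage.

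Of the core list, GSTU20, a glutathione transferase assigned to methionine-derived glucosinolates, read 11.24, 10.70 and 10.03 in esd7-1 replicates 1 to 3 and 10.70, 9.15 and 10.38 in Ler replicates 1 to 3. Its lowest value was again Ler replicate 2, and the mean of the 2 arrays differed from that of the others by -1.17. UGT74B1, the glucosyltransferase that forms desulfoglucosinolates from methionine and from other amino acids, read 8.26, 8.75 and 6.93 in esd7-1 and 7.92, 7.03 and 8.43 in Ler. It was lowest on esd7-1 replicate 3, with a difference of -1.36 on the 2 arrays. AT2G31790, on the core list, differed by -0.78. Between genotypes GSTU20 differed by 0.58 ± 0.46 (SE) and UGT74B1 by 0.19 ± 0.54 (SE), and their adjusted p in limma was 0.846 and 0.949. Without Ler replicate 2 these differences were 0.12 and -0.20, and without esd7-1 replicate 3 they were 0.89 and 0.71.

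On the side-chain list, AOP1, the neighbouring relative of AOP3, read 7.08, 7.10 and 5.86 in esd7-1 and 7.01, 6.56 and 6.89 in Ler. It differed by -0.81 on the 2 arrays, with -1.23 inside esd7-1 and -0.39 inside Ler. The larger drop thus lay in esd7-1 for AOP1 and in Ler for AOP3. AT2G25450, the other measured gene of that list, read 7.99, 8.19 and 6.78 in esd7-1 and 7.75, 6.48 and 7.88 in Ler. Its drop was nearly equal in the genotypes, at -1.31 and -1.33, and its arrays had the same order as those of BCAT4. That order was found for 0.354% of the 13286 genes, BCAT4 and AOP3 included.

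APS3, an ATP sulfurylase of sulfate assimilation, was the 1 measured gene of the sulfur and methionine supply list. It read 7.23, 7.59 and 6.21 in esd7-1 and 6.96, 5.92 and 7.0 in Ler. It shared the array order of BCAT4, and it differed by -1.13 on the 2 arrays. Of the other branched-chain aminotransferase genes, ATBCAT-5 differed by -0.30 and AT1G50110 by -0.63 on the 2 arrays. Both read lower there than on each of the other arrays, as did 14.3% of all probe sets. Both moved far less than BCAT4, whose difference was -2.75. Of the 14 genes, 8 (57.1%) were lower on both arrays, against the same 14.3%. The count of 8 includes APS3, ATBCAT-5 and AT1G50110, from the supply and aminotransferase lists. Of these 8, 4 had the larger drop in Ler, as BCAT4 and AOP3 had, and 4 had it in esd7-1.

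**Figure D2:**
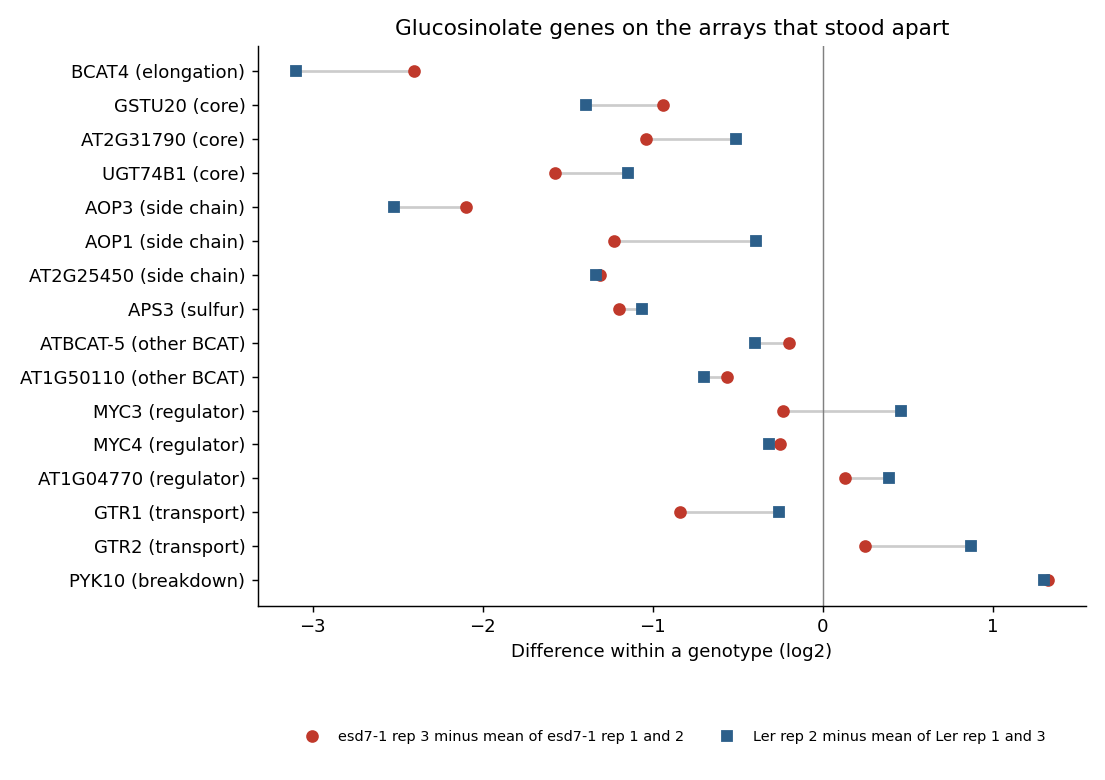
Log2 difference within a genotype (x axis) for BCAT4, AOP3 and the 14 other measured genes of the lists. Red circles show esd7-1 replicate 3 minus the mean of the other esd7-1 arrays. Blue squares show Ler replicate 2 minus the mean of the other Ler arrays. The list of each gene is in parentheses on the y axis. BCAT4 and AOP3 lie furthest to the left, at -2.41 and -3.10 and at -2.10 and -2.52, while PYK10 lies to the right of 0 at 1.33 and 1.31.

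Of the 6 measured regulators, transporters and breakdown enzymes, 0 read lower on both arrays than on each of the others. For all probe sets the share was 14.3%, and with 6 genes a count of 0 lies near it. MYC3, a basic helix-loop-helix factor that acts with MYB factors on glucosinolate genes, read 5.48, 6.19 and 5.60 in esd7-1 and 6.50, 7.27 and 7.12 in Ler. All its esd7-1 values lay below all its Ler values, as for 5.69% of all probe sets. Between genotypes it differed by -1.21 ± 0.26 (SE), with an unadjusted p of 0.0030 in limma and an adjusted one of 0.733, and it differed by 0.11 on the 2 arrays. A term for the 2 arrays gave an adjusted p of 0.191 in limma, and leaving both out gave 0.485. Its relative MYC4 differed by -0.17 between genotypes and by -0.28 on the 2 arrays. AT1G04770, on the regulator list, differed by -0.47 between genotypes (limma adjusted p 0.846) and by 0.26 on the 2 arrays. The MYB factors on that list were not analysed here.

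The glucosinolate transporters GTR1 and GTR2 differed in opposite directions on the 2 arrays. GTR1 read 7.64, 7.98 and 6.97 in esd7-1 and 7.83, 7.67 and 8.02 in Ler, a difference of -0.55 on the 2 arrays with overlapping values. GTR2 read 6.06, 6.08 and 6.32 in esd7-1 and 5.42, 6.23 and 5.30 in Ler, and was higher on both arrays than on the other 4, by 0.56 on average. In esd7-1 GTR2 differed little between arrays, and the larger step, 0.87, lay in Ler. Its genotype difference was 0.50 ± 0.25 (SE), at a limma adjusted p of 0.846, and 0.79 without Ler replicate 2, where that p was 0.754. PYK10, a beta-glucosidase of roots that also acts on glucosinolates, read 10.74, 10.57 and 11.98 in esd7-1 and 10.42, 11.80 and 10.57 in Ler. It was higher on the 2 arrays by 1.32, and it is counted among the root markers as well. None of the 13 genes of indole glucosinolate synthesis was analysed here.

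**Figure D3:**
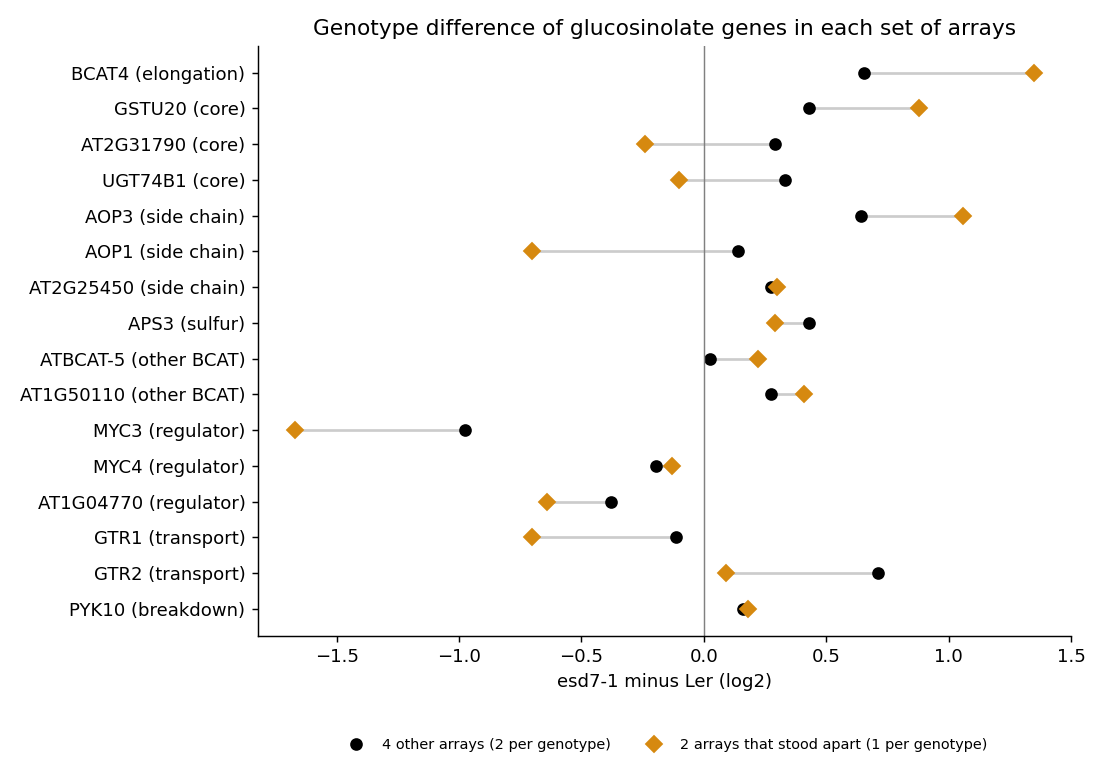
Log2 difference esd7-1 minus Ler (x axis) among the 4 other arrays (black circles, 2 arrays per genotype) and between esd7-1 replicate 3 and Ler replicate 2 (orange diamonds, 1 array per genotype), for the same 16 genes (y axis). BCAT4 and AOP3 lie above 0 in both sets, at 0.66 and 1.35 and at 0.64 and 1.06, while AOP1 lies at 0.14 in one and at -0.70 in the other.

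Likeness to the pair was measured as the root mean square difference, over the 6 arrays, between the values of a gene centred on its own mean and the mean centred profile of BCAT4 and AOP3. Compared directly with each other, the centred values of BCAT4 and AOP3 had a root mean square difference of 0.23 log2 units. The median of the 13284 other genes from the mean profile was 1.28. A gene that did not change between arrays would lie at the size of that profile, which was also 1.28. The nearest was AT1G73600, at 0.28, which read 8.94, 8.97 and 7.18 in esd7-1 and 8.38, 6.12 and 8.30 in Ler. Like the pair it was lowest on Ler replicate 2 and next lowest on esd7-1 replicate 3. Next came the plastid gene psbK, for a small subunit of photosystem II, at 0.53, and AT5G44720 at 0.54. The others of the nearest 10 were AT3G51450, AT1G31690, AT3G16530, AT1G21440, AT1G14130, AT3G23570 and Cpn60beta2, a plastid chaperonin subunit, at 0.56 to 0.65. All 10 read lower on both arrays than on each of the others, with differences of -1.998 to -1.41, which follows from the measure. Among the 4 other arrays 8 of the 10 were higher in esd7-1 on average, and 2, psbK and AT1G14130, were lower. The pair was itself higher in esd7-1 there, so the measure leans towards such genes. Of all 13286 genes, 7032 were higher in esd7-1 on those arrays.

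None of the nearest 10 was on a glucosinolate list. AT2G25450 took place 11, UGT74B1 place 16, APS3 place 19 and GSTU20 place 20 of 13284. AT2G31790 took place 132, AT1G50110 place 154 and AOP1 place 327. ATBCAT-5, GTR1 and MYC4 took places 1181, 1204 and 2053, and AT1G04770, GTR2, MYC3 and PYK10 lay near the far end, at places 12387, 12499, 12998 and 13168. The measure takes in the size of a change, so genes with the same order but smaller steps lie further down.

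The 5 genes nearest to the profile with its sign turned were AT1G29090, HIS1-3, tny, AT1G64590 and ATL8, at 0.28 to 0.39. HIS1-3, a linker histone gene known for induction by drought, read 4.64, 4.17 and 5.92 in esd7-1 and 4.54, 7.53 and 4.53 in Ler. It was highest on Ler replicate 2, where BCAT4 and AOP3 were lowest. The AP2-type factor gene tny (TINY) read 4.91, 4.87 and 7.08 in esd7-1 and 5.05, 7.47 and 4.84 in Ler. These 5 genes were higher on the 2 arrays by 1.96 to 2.49, which follows from the measure.

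**Figure D4:**
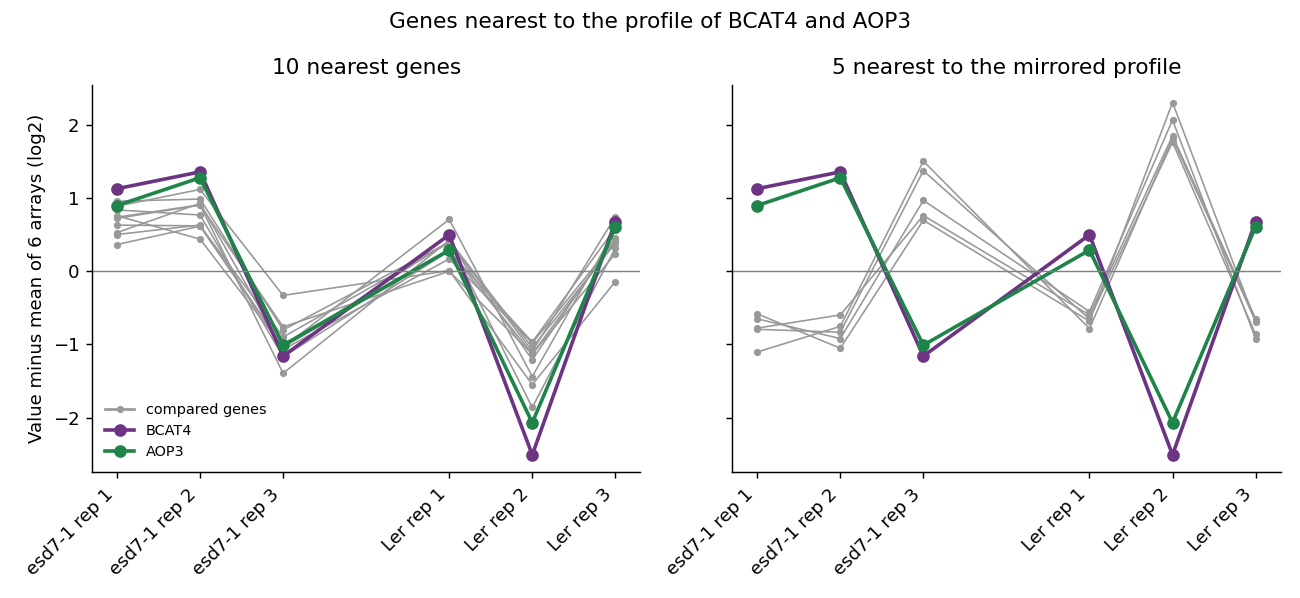
Log2 values minus the mean of each gene over the 6 arrays (y axis) on each array (x axis), for BCAT4 (purple), AOP3 (green) and, in grey, the 10 genes nearest to their mean profile (left) and the 5 nearest to that profile with its sign turned (right). The grey lines on the left dip on esd7-1 replicate 3 and Ler replicate 2 by less than BCAT4 and AOP3 on average. Those on the right are higher there by 1.96 to 2.49. Both directions follow from how the genes were picked.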

How the data were processed

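The deposited table held log2 values per probe set, with 2 decimals, for 6 arrays. RMA and limma are named, with no version, in the submitters' processing notes. RMA puts all arrays on one distribution, which hides any change common to all transcripts. Of 22810 probe sets, 64 controls were left out. All columns belonged to a sample.

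The platform's probe table, updated by gene identifier to the RefSeq genes of assembly TAIR10.1, named 13513 probe sets with 1 gene, 503 with several and 8730 with none. Of the 13513, 13436 matched, and the brightest stood for a gene. No coordinates were used.

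Genotypes, taken from titles, were compared with lmFit and eBayes of limma 3.58.1, under R 4.3.3 (two-sided, Benjamini-Hochberg over 22746 probe sets, threshold 0.05), checked on simulated data. The simulated noise was independent between arrays and held no split of the arrays, so the check does not cover such a split. Members, lists, tests and alternatives were chosen with earlier results of these data known. Genes named are BCAT4, AOP3, the measured listed genes, the nearest 10 and the 5 mirrored genes. AT2G25450, AT2G31790, AT1G04770, AT1G50110 and AT3G01190 carry no gene name in the tables and were placed on lists by locus. The number of arrays limits the precision.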

Additional observations from a re-analysis of the deposited data

How the results depend on the processing

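The count called was 0 over all probe sets and 0 among the 14 other listed genes. It held with the replicate number as a block, both scalings, a trended and robust variance and removal of dim probe sets. Over all probe sets it was 4 with a term for the 2 arrays, 4 with both left out, 33 with array weights, and 0 to 1 when single arrays were dropped (1 without esd7-1 replicate 3). In all of these settings, and with probe sets averaged per gene, it was 0 among the 14. An unadjusted p under 0.05 was reached by 1315 probe sets, and by 1141 with the replicate block. Over the omission of single arrays, the genotype difference ranged from -0.15 to 1.69 for BCAT4 and from -0.06 to 1.48 for AOP3, both negative only without Ler replicate 2. The difference of the 2 arrays from the other 4 ranged from -3.43 (without esd7-1 replicate 3) to -2.08 (without Ler replicate 2) for BCAT4 and from -2.84 to -1.78 for AOP3. Both scalings kept every sign, with genotype differences of 0.88 and 1.00 for BCAT4 and 0.77 and 0.89 for AOP3. Same-numbered arrays were not paired in the main fit. For numbers 1, 2 and 3 their deviations from the genotype means had correlations of 0.54, -0.41 and -0.60. The 2 low arrays carry different numbers, which by itself shapes these correlations, so they cannot decide whether arrays were paired. The 25S rRNA control read 8.99 on esd7-1 replicate 1 and 9.66 on Ler replicate 1, against 4.69 to 5.77 on the other arrays. Each replicate number holds an array of each genotype, so the replicate block cannot change the differences of BCAT4 and AOP3, 0.89 and 0.78. With the block their standard errors were 1.14 and 0.99, against 1.02 and 0.86 in the main fit. The precision rests on 3 arrays per genotype and on 1 array of each on the low side.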
